A study of Mus musculus with 17 samples.

Results

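Kinesins are motor proteins that walk along microtubules, the hollow tubulin tracks of the cell. The kinesin motor genes are taken here as all genes of the deposited tables whose symbol is Kif followed by a number and at most 1 further letter. The rule gave 39 of 78298 genes. Levels are in TPM (transcripts scaled to a fixed library total), a unit that scales each transcript by its length so that genes can be compared within a library. The study gave vindeburnol, a synthetic compound related to the plant alkaloid vincamine, or its derivative VB-127 to male C57BL/6 mice, each at 20 mg/kg in water by oral gavage, once a day for 5 days. Tissue labelled as locus coeruleus was taken 24 hours after treatment from 5 vindeburnol, 6 VB-127 and 6 untreated control samples. The labels name no vehicle group, so the action of a compound and that of the gavage cannot be told apart. Ages, and whether each library is 1 animal, are not given, and p-values measure the spread between these samples, which may be technical.

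TPM keeps no read depth, so precision rests on the spread between libraries. The noncoding RNA Bc1 took 16.1% to 35.3% of a library's TPM and moves every other value of that library. The tissue label was checked against noradrenergic markers. The noradrenaline synthesis gene Dbh ranged from 0 to 18.9 TPM and the noradrenaline transporter gene Slc6a2 from 0 to 8.94 TPM, both highest in control replicate 1. Dbh averaged 6.08 TPM in controls, with 18.9 and 12.3 TPM in replicates 1 and 6 and 0.290 to 2.57 TPM in the others. It was at most 2.36 TPM in every compound-treated library. Other monoamine neurons also use Th and Slc18a2. Th did not follow Dbh: control replicate 1 had the lowest Th of the 17 libraries, at 17.8 TPM where the others had 28.9 to 153.8 TPM. Slc18a2 followed Dbh in part, at 26.0 TPM in control replicate 1 and highest, at 59.7 TPM, in control replicate 6. General neuron markers were high, with the synaptic gene Snap25 between 280.2 and 1391 TPM. In such bulk tissue, fewer cells of a type and less RNA per cell cannot be told apart.

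In neurons, kinesins carry vesicles, mitochondria and cytoskeletal parts away from the cell body along axons and dendrites. Other members build and move cilia, and a further set builds the mitotic spindle and separates dividing cells. Mitotic members are switched on in cycling cells, and mature neurons do not divide. The 39 genes were sorted by known role into 11 neuronal transport, 4 other trafficking, 6 cilium, 12 mitotic and 5 other kinesins, while Kif19b was given no role. Of the 39, 22 reached 1 TPM in at least 5 libraries and were tested: all 11 transport, all 4 other trafficking, 3 cilium, 3 other and 1 mitotic. The remaining 17 are given by their values only.

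Promoter sequences were searched for 2 short elements known from cell cycle genes. Promoter windows of 300 bases, from 250 before to 50 after a gene's start, came from RefSeq (GRCm38.p6) and were matched by symbol for 11 of the 12 mitotic and 8 of the 11 transport kinesins. Windows on 1 chromosome were left out of the set, for kinesins and for all genes alike. Kif20a, Kif5a, Kif5b and Kif21b had no window in the set used. The cell cycle homology region, a short element through which a repressor complex silences cell cycle genes in resting cells, was searched as TTTGAA or TTCGAA on both strands. It was found in 9 of 11 mitotic kinesins (81.8%) and in 1 of 8 transport kinesins (12.5%), against 21.7% of 27025 genes with a window. In the 100 bases before the start it was found in 3 of 11 mitotic (27.3%) and 1 of 8 transport kinesins (12.5%), against 7.18% of all genes. The CCAAT box was searched as CCAAT on both strands (matches of the 2 elements could overlap). It was found in 7 of 11 mitotic kinesins (63.6%) and 3 of 8 transport kinesins (37.5%), against 41.1% of all genes. The same genes held it in the 100 bases before the start, against 21.6% of all genes. Such matches describe letters and are no evidence of binding. Printed here are the 100 bases before the start for the 3 mitotic kinesins and the 1 transport kinesin, Kif1a, whose first element lies in that stretch, and for Kif5c, Kif3c and Kif3a, high-level transport kinesins with a single listed start. Capitals mark both elements, 5′ to 3′ on the gene's strand. Kif11 lies at chr19:37376282-37376381 (plus strand), Kif15 at chr9:122950981-122951080 (plus), Kif22 at chr7:127042421-127042520 (minus), Kif1a, at 1 of its 2 listed starts, at chr1:93082481-93082580 (minus), Kif5c at chr2:49619186-49619285 (plus), Kif3c at chr12:3365032-3365131 (plus) and Kif3a at chr11:53567269-53567368 (plus).
Kif11: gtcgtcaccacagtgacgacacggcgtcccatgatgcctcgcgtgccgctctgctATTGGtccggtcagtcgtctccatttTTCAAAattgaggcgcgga
Kif15: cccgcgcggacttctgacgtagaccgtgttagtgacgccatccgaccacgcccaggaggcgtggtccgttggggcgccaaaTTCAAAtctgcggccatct
Kif22: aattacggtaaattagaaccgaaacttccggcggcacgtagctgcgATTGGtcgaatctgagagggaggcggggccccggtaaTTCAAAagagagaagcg
Kif1a: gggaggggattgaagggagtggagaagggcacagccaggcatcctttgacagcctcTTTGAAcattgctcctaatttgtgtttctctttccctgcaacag
Kif5c: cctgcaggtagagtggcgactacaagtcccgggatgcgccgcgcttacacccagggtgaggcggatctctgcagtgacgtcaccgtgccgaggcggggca
Kif3c: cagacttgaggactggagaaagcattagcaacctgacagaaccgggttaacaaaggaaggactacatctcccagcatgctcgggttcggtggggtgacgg
Kif3a: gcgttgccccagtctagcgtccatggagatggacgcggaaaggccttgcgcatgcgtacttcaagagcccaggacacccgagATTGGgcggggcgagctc
In the 3 mitotic sequences the first element reads TTCAAA, the reverse complement of TTTGAA, and Kif11 and Kif22 also hold ATTGG, the reverse complement of CCAAT. Kif1a holds TTTGAA itself at this start and not in the 100 bases before its other start. Kif3a holds ATTGG alone, and Kif5c and Kif3c hold neither.

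Transport kinesins dominated the family in every library. The 11 of them made up 87.5% to 91.02% of all kinesin TPM, and the 12 mitotic members 0.116% to 0.625%. The summed transport level was 1179 ± 265 TPM in controls (SD, n = 6), 1211 ± 177 TPM after vindeburnol (SD, n = 5) and 1266 ± 215 TPM after VB-127 (SD, n = 6). The summed mitotic level was 4.72 ± 1.91, 5.04 ± 2.20 and 4.85 ± 2.604 TPM in the same order, so the groups overlapped on both sides. Kif5a, the neuronal kinesin-1 heavy chain that moves neurofilaments and other slow cargo, had the highest median at 466.4 TPM. Kif1a, which carries synaptic vesicle precursors, followed at 225 TPM and lay below Kif5a in all 17 libraries. Kif5c, a second neuronal kinesin-1 heavy chain, and Kif1b, which carries mitochondria and vesicle precursors, had medians of 132 and 130.1 TPM and could not be ordered, since Kif5c was the higher in 7 of 17 libraries. The widely expressed kinesin-1 gene Kif5b, at 91.5 TPM, lay below Kif1b in all 17. Kif3c, Kif3a and Kif21a, at 63.0, 62.6 and 57.2 TPM, came next, with Kif3c above Kif3a in 8 of 17 libraries. Kif3b, Kif21b and Kif17 had the lowest medians of the role, at 15.3, 9.87 and 5.67 TPM.

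**Figure D1:**
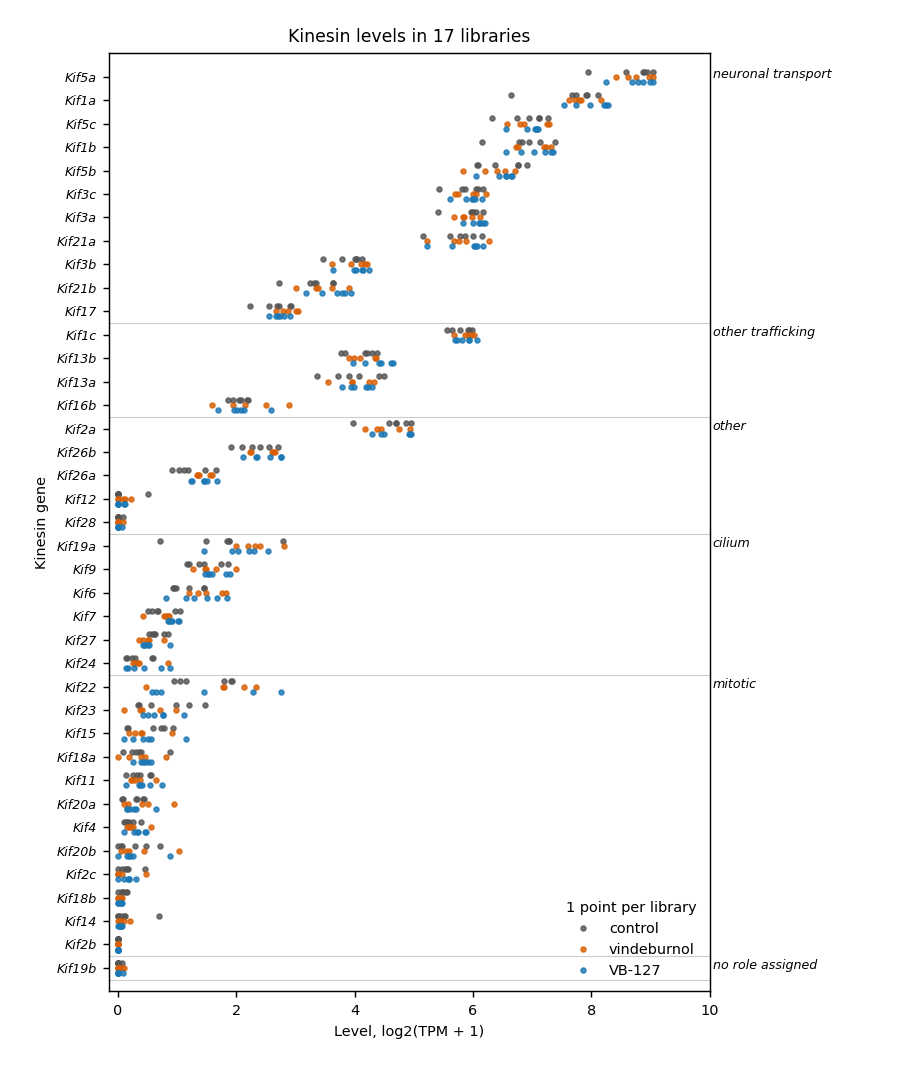
Level of each of the 39 kinesin genes as log2(TPM + 1), with 1 point per library and 3 colours for the 3 groups, genes sorted by role and median. The 11 transport kinesins lie to the right, up to 528 TPM for Kif5a, while all 12 mitotic kinesins lie below 6 TPM, and the colours overlap in every row that holds values above 0.

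The kinesin-1 heavy chains showed how the groups overlapped. Kif5a was between 244 and 525.96 TPM in controls (median 470.3), at 504, 523, 340.5, 432 and 391 TPM in vindeburnol replicates 1 to 5, and between 303 and 528 TPM after VB-127 (median 453). The control range covers all but the highest VB-127 library, and the lowest value of the 17 is control replicate 4. Kif5b was between 66.0 and 119 TPM in controls (median 94.2), at 91.5, 103, 55.5, 72.6 and 83.8 TPM after vindeburnol, and between 65.01 and 99.4 TPM after VB-127 (median 93.1). Here vindeburnol replicate 3 was the lowest library and control replicate 6 the highest. Kif5c was between 79.1 and 153 TPM in controls (median 129.7), at 155, 151, 94.4, 115 and 109.7 TPM after vindeburnol, and between 92.8 and 135 TPM after VB-127 (median 132). Again control replicate 4 was lowest, and vindeburnol spanned most of the control range. The make-up of kinesin-1 varied less than its level: Kif5a gave 62.7% to 72.1%, Kif5c 17.7% to 20.7% and Kif5b 9.82% to 16.95% of the 3 chains' TPM over the 17 libraries.

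The kinesin-3 genes Kif1a and Kif1b and the kinesin-2 and kinesin-4 genes followed the same libraries. Kif1a was between 99.03 and 275 TPM in controls (median 226), at 225, 210.2, 219.9, 287 and 196 TPM after vindeburnol, and between 185 and 310.1 TPM after VB-127 (median 272). VB-127 replicates 4, 5 and 6 held the 3 highest values of the 17, and control replicate 4 lay far below every other library. Kif1b was between 69.9 and 165 TPM in controls (median 118), at 146, 148, 105, 159 and 107.5 TPM after vindeburnol, and between 93.1 and 162 TPM after VB-127 (median 139). Its highest and lowest libraries were both controls, replicates 6 and 4. Kif3a, a subunit of the kinesin-2 motor that carries vesicles in axons and parts of cilia, was between 41.3 and 70.8 TPM in controls (median 62.3), at 62.04, 68.4, 50.1, 56.1 and 56.7 TPM after vindeburnol, and between 56.05 and 72.8 TPM after VB-127 (median 68.2). Kif21a, which restrains microtubule growth, was between 34.6 and 69.8 TPM in controls (median 55.7), at 57.6, 76.3, 36.2, 53.05 and 49.96 TPM after vindeburnol, and between 36.3 and 71.0 TPM after VB-127 (median 64.1). Each group of both genes had libraries above and below the median of all 17.

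The spread of transport kinesins lay between libraries within groups. Control replicate 4 was the lowest of 17 libraries for 10 of the 11 transport kinesins, the exception being Kif5b, and for 16 of the 22 tested kinesins, and it was lowest for 36.02% of all 16153 genes tested. Its transport kinesins had a median deviation of -0.71 on the log2(TPM + 1) scale from each gene's median over libraries, against -0.31 for all genes tested. VB-127 replicate 2, vindeburnol replicate 5 and control replicate 5 had all 11 transport kinesins below the gene's median, and vindeburnol replicate 3 had 10. In VB-127 replicate 4 none lay below it. Transcript length moved with this pattern: 9 of the 11 transport kinesins have a longest transcript at or above the upper quartile of tested genes (4668.5 bases or more, GENCODE M21 lengths). In control replicate 4 genes at or above that quartile deviated by -0.50 in the median and genes at or below the lower quartile by -0.11, and in VB-127 replicate 2 by -0.25 and -0.0039. Neuron markers moved with it in part. In control replicate 4, 8 of the 10 lay below their median over libraries, with Snap25 at 280.2 TPM, while Tubb3 and Nefh lay above theirs at 455.9 and 166.8 TPM. In VB-127 replicate 2 it was 9 of 10, but vindeburnol replicate 2 had the next lowest Snap25, 625.1 TPM, with 1 of 11 transport kinesins below its median. The summed level of the 10 markers was 2527 to 4476 TPM in controls, 3137 to 3831 TPM in vindeburnol libraries and 3078 to 4003 TPM in VB-127 libraries. Bc1 took 35.3% of TPM in control replicate 4, 29.3% in vindeburnol replicate 3 and 28.8% in VB-127 replicate 2. In vindeburnol replicate 5 it took 25.9%, against a median of 22.2% over libraries. Control replicate 5 was near that median at 22.4%. Control replicate 1, at 25.3%, had 4 of 11 transport kinesins below the gene's median. The part of Bc1, length, RNA quality and neuron content in these values was not tested.

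**Figure D2:**
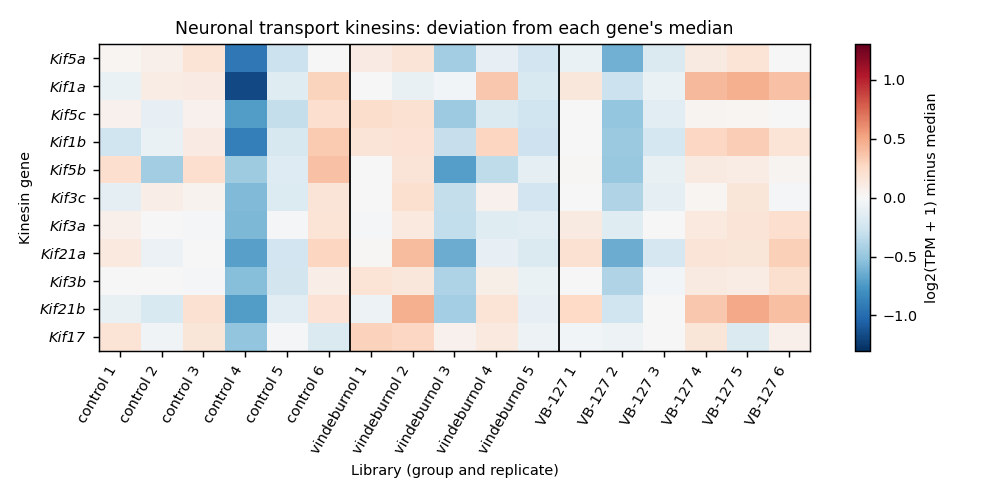
Deviation of 11 transport kinesins (rows) from each gene's median over 17 libraries (columns, ordered by group and replicate), on the log2(TPM + 1) scale from blue (lower) to red (higher). Control replicate 4 is blue in all rows, VB-127 replicate 2 is blue in all rows, and no group is of one colour.

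Relations of single kinesins with a marker gene of their role were computed over the 17 libraries in a family of 6, on the log2(TPM + 1) scale. Kif1a went with Snap25, a synaptic vesicle fusion gene (Pearson r = 0.783, permutation p = 0.00234, adjusted p = 0.0140; Spearman rho = 0.591, permutation p = 0.0145, adjusted p = 0.0868). Without the 2 libraries farthest from the Snap25 median, control replicates 2 and 4, r was 0.503. Without control replicate 4 alone it was 0.451 with an adjusted permutation p of 0.489. The test result over all libraries thus depended on that library. Within the 6 VB-127 libraries, which do not include it, r was 0.854. Within the 6 controls, which do include it, r was 0.952. The r of deviations from group means, which also includes it, was 0.832. The 5 vindeburnol libraries are too few for a value of their own. Kif5a with the neurofilament gene Nefh had r = 0.0484 (permutation p = 0.838, adjusted p = 0.952; rho = -0.0245, permutation p = 0.927, adjusted p = 0.927). No relation of a cilium or mitotic kinesin passed its test: r was 0.0881 for Kif9 with Foxj1, -0.324 for Kif27 with Foxj1, 0.0160 for Kif11 with Top2a and -0.0789 for Kif22 with Mki67. The Pearson permutation p of these 4 were 0.735, 0.206, 0.952 and 0.764 (adjusted 0.952, 0.618, 0.952 and 0.952). Their rho were 0.108, -0.412, 0.0441 and 0.0564, with permutation p of 0.681, 0.101, 0.868 and 0.831 (adjusted 0.927, 0.302, 0.927 and 0.927). Without the 2 farthest libraries r was 0.193, -0.286, 0.0657 and 0.256, and 0.0353 for Kif5a with Nefh.

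For vindeburnol against controls, limma (a linear model per gene on log2(TPM + 1), 16153 genes, Benjamini-Hochberg adjustment) called 0 kinesins at an adjusted p under 0.05, where the background was 0% of all genes. At an unadjusted p under 0.05 there was 1 of 22 kinesins, Kif19a on the higher side, against 8.17% of all genes (6.95% higher). The count was 0 with median-ratio scaling, quantile normalization, TPM rescaled without Bc1 or library weights. It was also 0 with the replicate number as a block and with only the 2 groups in the fit. It stayed at 1 with a pseudocount of 0.1 and without robust moderation. In 0 of 22 did the groups not overlap, against 0.52% of all genes. In value, 18 of the 22 kinesins lay above 0 (81.8%) against 69.7% of all genes, with medians of 0.11 and 0.08. With median-ratio scaling it was 13 of 22 against 50.8%, and with quantile normalization 12 of 22 against 48.9%. With TPM rescaled without Bc1 it was 13 of 22 against 57%. Without control replicate 4 it was 12 of 22 against 57.4%, with medians of 0.01 over kinesins and 0.03 over all genes. Of the 11 transport kinesins, 8 lay above 0, with a median of 0.05 and a range of -0.16 to 0.21. Kif17, which carries NMDA receptor vesicles in dendrites, was at 6.37 ± 0.764 TPM (SD, n = 5), and in controls at 5.44 ± 1.07 TPM (SD, n = 6), a log2 difference of 0.21 (SE 0.13, 95% interval -0.073 to 0.49, limma adjusted p = 0.694). Kif1b differed by 0.18 (95% interval -0.21 to 0.57, adjusted p = 0.823 by limma) and Kif5b by -0.16 (95% interval -0.51 to 0.20, adjusted p = 0.833). Without control replicates 1 and 6, the highest in Dbh, the Kif5b difference was 0.015, and without vindeburnol replicate 3 it was -0.029. Without control replicate 4 the Kif17 difference was 0.12 and the Kif1b difference 0.035.

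For VB-127 against controls, limma called 0 kinesins, where 0.00619% of all genes were called. At an unadjusted p under 0.05 there were 0 of 22 kinesins against 10.2% of all genes, and in 0 of 22 did the groups not overlap, against 0.669%. In value, 20 of 22 kinesins lay above 0 (90.9%) against 79.4% of all genes, with medians of 0.11 and 0.11. With median-ratio scaling the all-gene median was 0.0089, and 11 of 22 kinesins lay above 0 against 52.7% of all genes. With quantile normalization it was 12 of 22 against 49%, and with TPM rescaled without Bc1 14 of 22 against 66.2%. Without control replicate 4 it was 13 of 22 against 67.3%, with medians of 0.03 over kinesins and 0.065 over all genes. Kif21b, a neuronal kinesin that limits microtubule growth, was at 11.7 ± 2.32 TPM (SD, n = 6), and in controls at 9.17 ± 2.18 TPM (SD, n = 6), a log2 difference of 0.33 (SE 0.17, 95% interval -0.031 to 0.69, limma adjusted p = 0.522), and 5 of 6 treated libraries exceeded the control mean. Its difference was 0.21 without control replicate 4. Kif1a differed by 0.33 (SE 0.20, 95% interval -0.096 to 0.75, limma adjusted p = 0.562), and by 0.12 without control replicate 4. Kif3a differed by 0.14 (95% interval -0.087 to 0.37, adjusted p = 0.632 by limma), and by 0.039 without control replicate 4. The ratio of Kif1a to Kif5a within a library was picked after values were seen. Scaling a library by 1 factor does not touch this ratio, while quantile normalization can. The ratio was 0.585 ± 0.0391 after VB-127 (SD, n = 6), 0.487 ± 0.0647 in controls (SD, n = 6) and 0.532 ± 0.118 after vindeburnol (SD, n = 5). Its ranges, 0.517 to 0.629, 0.406 to 0.589 and 0.402 to 0.663, overlapped.

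Vindeburnol and VB-127, given at the same dose and time, were compared directly as 1 pair, with p-values adjusted over all genes. The 2 compounds share the control samples in the comparisons above, so their agreement there is not read. Limma called 0 kinesins, where 0% of all genes were called, and 0 of 22 had an unadjusted p under 0.05, against 3.38% of all genes (0.891% higher). In 0 of 22 did the groups not overlap, against 0.39% of all genes. In value, 9 of 22 lay above 0, against 38.9% of all genes. The median over kinesins was -0.0056 and over all genes -0.03. Kif13b, which carries signalling vesicles, had the smallest p among kinesins, at 16.7 ± 2.54 TPM (SD, n = 5) for vindeburnol and 20.1 ± 3.64 TPM (SD, n = 6) for VB-127, and all 5 vindeburnol libraries lay below the VB-127 mean. Its log2 difference was -0.24 (SE 0.14, 95% interval -0.54 to 0.063, limma adjusted p = 0.9999). For the transport kinesins Kif3a, Kif21b and Kif17 the intervals were -0.42 to 0.062, -0.58 to 0.18 and -0.13 to 0.43, around differences of -0.18, -0.199 and 0.15. Kif21b was at -0.087 without vindeburnol replicate 3. These intervals leave room for differences in either direction and do not show that the compounds act alike.

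**Figure D3:**
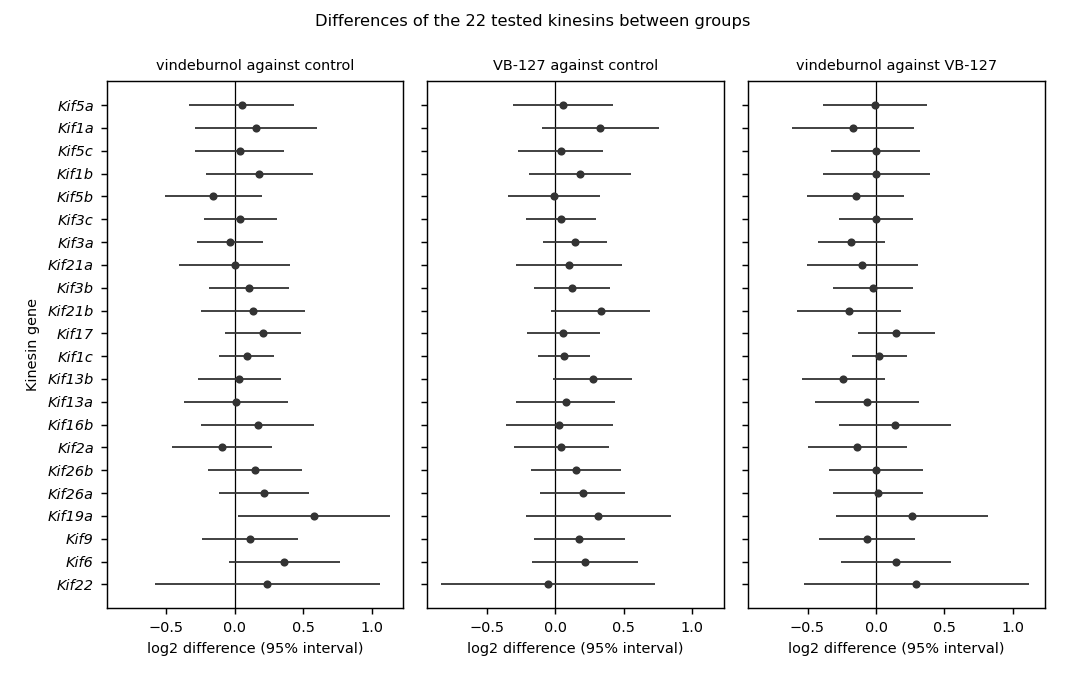
Log2 differences of the 22 tested kinesins in the 3 comparisons (points), with 95% intervals from limma (bars), on the log2(TPM + 1) scale. In the main fit shown, all intervals cross 0 except that of Kif19a for vindeburnol against controls, 0.024 to 1.13, whose limma adjusted p was 0.595.

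Among the other trafficking kinesins, Kif1c, a widely expressed vesicle motor, had a median of 59.5 TPM and the steadiest level of all tested kinesins, with a coefficient of variation of 10.03% over libraries, against a median of 20.5% over all genes tested. Kif13b and Kif13a, which sort membrane cargo, had medians of 17.4 and 14.8 TPM, and the endosome motor Kif16b one of 3.23 TPM. Kif16b ranged from 2.00 TPM in vindeburnol replicate 3 to 6.42 TPM in vindeburnol replicate 2, so the vindeburnol group held both its extremes. After vindeburnol, Kif1c differed from controls by 0.09 (95% interval -0.11 to 0.29, limma adjusted p = 0.836) and Kif16b by 0.17 (95% interval -0.24 to 0.58, adjusted p = 0.850 by limma). After VB-127, Kif13b differed from controls by 0.27 (95% interval -0.017 to 0.56, limma adjusted p = 0.507), with 20.1 ± 3.64 against 16.4 ± 2.92 TPM (SD, n = 6 each). Kif1c differed there by 0.06 (95% interval -0.13 to 0.25, adjusted p = 0.804 by limma), a direction that turned with every scaling tried, and by 0.013 without control replicate 4. The vindeburnol difference of Kif1c was 0.038 without that library. Between the compounds Kif16b differed by 0.14 (95% interval -0.27 to 0.55). Without vindeburnol replicate 2 the Kif16b differences were -0.0018 from controls and -0.031 from VB-127.

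Cilium kinesins were low in level and spread widely within groups. Kif19a, which trims microtubules at the tips of motile cilia, was between 0.643 and 5.87 TPM in controls (median 2.62), at 5.96, 2.99, 3.97, 3.57 and 4.28 TPM after vindeburnol, and between 1.74 and 4.79 TPM after VB-127 (median 3.35). All 5 vindeburnol libraries lay above the control mean of 2.70 TPM, and control replicate 5, at 5.87 TPM, lay above 4 of them. The vindeburnol difference was 0.58 (SE 0.27, 95% interval 0.024 to 1.13, limma adjusted p = 0.595), 0.37 without control replicate 6 and 0.25 without control replicates 1 and 6. After VB-127 it was 0.31 (95% interval -0.22 to 0.84, limma adjusted p = 0.648), or -0.018 without control replicates 1 and 6, and between the compounds 0.27 (95% interval -0.29 to 0.82, limma adjusted p = 0.9999). Kif6, a further motile cilium kinesin, differed from controls by 0.36 after vindeburnol (95% interval -0.042 to 0.77, limma adjusted p = 0.625) and by 0.22 after VB-127 (95% interval -0.17 to 0.60, adjusted p = 0.664 by limma), and by 0.15 between the compounds (95% interval -0.26 to 0.55). Leaving out 1 library moved the last of these between 0.032 and 0.24, the former without VB-127 replicate 3, and the VB-127 value between 0.12 and 0.33. Kif9, which sits in the beating apparatus of cilia, was between 1.24 and 2.62 TPM in controls (median 1.65), at 2.96, 1.40, 2.16, 1.76 and 1.79 TPM after vindeburnol, and between 1.76 and 2.70 TPM after VB-127 (median 1.95).

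Of the 11 ependymal and motile cilium markers, 8 were tested. For vindeburnol against controls 2 of the 8 lay above 0, with a median of -0.11, and for VB-127 5 of the 8, with a median of 0.08. The summed level of the 11 was 22.5 to 54.8 TPM in controls, 22.8 to 50.9 TPM in vindeburnol libraries and 36.3 to 52.98 TPM in VB-127 libraries. Its lowest and highest controls, replicates 6 and 5, were also those of Kif19a, and the part of ciliated cells in the Kif19a values was not tested. Foxj1, the master regulator of motile cilia, was between 8.08 and 16.3 TPM, and no marker was at 0 in all libraries. Vindeburnol replicate 1, the highest library for Kif19a and Kif9, had the lowest Foxj1 and had Tmem212 at 0. Kif7, a cilium protein of hedgehog signalling, Kif27 and the centriole kinesin Kif24 did not pass the level filter. Kif7 stayed between 0.331 and 1.05 TPM. Kif27 was between 0.434 and 0.786 TPM in controls (median 0.538), at 0.715, 0.422, 0.4396, 0.346 and 0.279 TPM after vindeburnol, and between 0.345 and 0.845 TPM after VB-127 (median 0.402). Kif24 was between 0.0951 and 0.844 TPM.

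**Figure D4:**
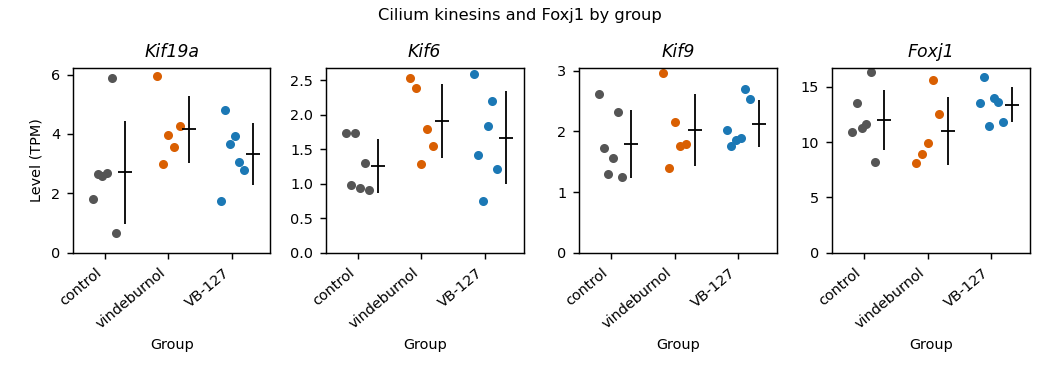
TPM of the cilium kinesins Kif19a, Kif6 and Kif9 and of Foxj1 in each library by group (points), with the group mean and SD (black bars). For Kif19a the 5 vindeburnol libraries lie between 2.99 and 5.96 TPM, within the control range of 0.643 to 5.87 TPM apart from the highest. Control replicate 6 is the lowest control and replicate 5 the highest for both Kif19a and Foxj1, while vindeburnol replicate 1 is the highest library for Kif19a and the lowest for Foxj1.

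Mitotic kinesins were near the floor, and Kif22 alone passed the filter. Kif22, a chromokinesin that pushes chromosomes along the spindle, was between 0.925 and 2.78 TPM in controls (median 1.84), at 2.44, 4.03, 3.36, 0.383 and 2.44 TPM after vindeburnol, and between 0.484 and 5.75 TPM after VB-127 (median 1.19). It had the widest relative spread of the tested kinesins, a coefficient of variation of 69.4%, and both compound groups reached above and below all controls. A pseudogene copy, Kif22-ps, is listed in the files, so its reads are uncertain. Kif22 differed from controls by 0.24 after vindeburnol (95% interval -0.58 to 1.06, limma adjusted p = 0.902) and by -0.05 after VB-127 (95% interval -0.84 to 0.73, adjusted p = 0.961 by limma), and by 0.29 between the compounds (95% interval -0.53 to 1.11). The VB-127 direction turned in 6 of the fits that left out 1 library. Without vindeburnol replicate 2 its vindeburnol difference was 0.080, and without replicate 4 it was 0.55. Kif22 made up 17.3% to 69.1% of the mitotic TPM of a library.

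Kif23, which bundles the central spindle for cytokinesis, was between 0.259 and 1.76 TPM in controls (median 0.720), at 0.978, 0.325, 0.637, 0.0660 and 0.298 TPM after vindeburnol, and between 0.332 and 1.15 TPM after VB-127 (median 0.606). Kif11, the motor that pushes spindle poles apart, was between 0.0958 and 0.465 TPM in controls (median 0.272), at 0.554, 0.225, 0.167, 0.183 and 0.297 TPM after vindeburnol, and between 0.0941 and 0.669 TPM after VB-127 (median 0.305). Kif20b, a cytokinesis kinesin, was between 0 and 0.633 TPM in controls (median 0.132), at 1.04, 0.0357, 0.350, 0.133 and 0.103 TPM after vindeburnol, and between 0 and 0.827 TPM after VB-127 (median 0.141). No group stood apart for any of the 3. Kif15, a spindle motor, reached 1 TPM in 1 library, at 1.21 TPM in VB-127 replicate 4. Kif4 (also with a listed pseudogene, Kif4-ps), Kif14, Kif18a, Kif18b, Kif20a and Kif2c stayed below 0.94 TPM in every library, and Kif2b was listed at 0 in all 17. Control replicate 6 was the highest library for Kif23, Kif14 and Kif18a, at 1.76, 0.616 and 0.835 TPM. The 15 general genes of dividing cells summed to 5.54 to 8.52 TPM in controls, 4.82 to 8.92 TPM in vindeburnol libraries and 5.76 to 8.77 TPM in VB-127 libraries, with the proliferation markers Mki67 and Top2a at most 0.125 and 0.272 TPM.

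Of the other kinesins, Kif2a, which takes apart microtubule ends and prunes axon branches, had a median of 25.1 TPM and was lowest in control replicate 4 at 14.7 TPM. It differed by -0.14 between the compounds (95% interval -0.50 to 0.23, limma adjusted p = 0.9999), and Kif26a by 0.01 (95% interval -0.31 to 0.34). Leaving out 1 library moved the Kif2a value between -0.24 and -0.047, the latter without vindeburnol replicate 3. Kif26a and Kif26b, atypical members of the family, had medians of 1.58 and 4.27 TPM. After vindeburnol they differed from controls by 0.21 (95% interval -0.11 to 0.54, limma adjusted p = 0.727) and 0.15 (95% interval -0.19 to 0.49, adjusted p = 0.834 by limma). After VB-127 the differences were 0.199 (95% interval -0.11 to 0.51, limma adjusted p = 0.622) and 0.15 (95% interval -0.18 to 0.48, adjusted p = 0.717 by limma). Without control replicate 4 the Kif26b differences were 0.067 and 0.069. Kif12, Kif28 and Kif19b were listed at 0 in 11, 14 and 13 of 17 libraries and reached 0.414, 0.0607 and 0.0668 TPM.

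Partners of the motors were read from lists of 11 kinesin partners and kinesins outside the name rule, 22 dynein and dynactin genes and 18 motor adaptors, of which 9, 22 and 18 were tested. No member passed limma's test in any comparison, with smallest adjusted p of 0.425 for vindeburnol and 0.461 for VB-127 against controls. At an unadjusted p under 0.05 for vindeburnol there were 2, 2 and 1 members, all higher, against 6.95% of all genes on that side, and for VB-127 2, 3 and 3 members, all higher, against 9.67%. Dctn1, the large dynactin subunit that links dynein to cargo and microtubules, had the smallest p of these lists in both comparisons with controls. It was at 222, 219, 207, 226 and 191.1 TPM after vindeburnol, between 147 and 191.3 TPM in controls and between 187 and 221 TPM after VB-127. All 5 vindeburnol and all 6 VB-127 libraries exceeded the control mean of 172.6 TPM, and both groups reached down into the control range. The log2 differences were 0.31 (SE 0.077, 95% interval 0.15 to 0.47, limma adjusted p = 0.425) and 0.25 (SE 0.073, 95% interval 0.093 to 0.399, limma adjusted p = 0.461). With median-ratio scaling they were 0.22 and 0.12.

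Klc2, a light chain through which kinesin-1 binds cargo, was at 158 ± 16.3 TPM (SD, n = 6) without a compound, 189.5 ± 16.8 TPM (SD, n = 5) with vindeburnol and 184.8 ± 13.5 TPM (SD, n = 6) with VB-127. The differences from controls were 0.26 (95% interval 0.091 to 0.43, limma adjusted p = 0.478) and 0.22 (95% interval 0.064 to 0.39, adjusted p = 0.461 by limma), and 0.17 and 0.10 with median-ratio scaling. Among adaptors, the trafficking adaptor gene Hap1 had the smallest p for vindeburnol, with a difference of 0.20 (limma adjusted p = 0.555), and the kinesin scaffold gene Mapk8ip1 for VB-127, with 0.18 (limma adjusted p = 0.4697). Between the compounds, Kifc3, Dync1li2 and the kinesin adaptor gene Fez1 differed by -0.13, -0.18 and -0.15, each with a limma adjusted p of 0.9999. Birc5, a mitotic survival gene from the list of dividing cells, lay lower with differences of -0.47 after vindeburnol and -0.43 after VB-127 (limma adjusted p = 0.583 and 0.484), with control, vindeburnol and VB-127 levels of 1.53 ± 0.753, 0.775 ± 0.223 and 0.858 ± 0.430 TPM (SD, n = 6, 5 and 6). Leaving out 1 library moved the Birc5 differences between -0.54 and -0.34 and between -0.52 and -0.30. Of the 3 tested genes of the list of dividing cells, Aurka lay higher in both comparisons with controls, by 0.024 and 0.11. Cdc20 had the smallest p of the 3 between the compounds, with -0.14 (limma adjusted p = 0.9999).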

How the data were processed

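Poly(A) RNA of 17 tissue samples was made into directional libraries, per the labels' protocols. STAR, Salmon and the build GRCm39 are named in the submitters' processing notes; versions and strand settings are not given in the sources used here. The authors deposited TPM per gene and library for 78298 genes, scaled within each library. Here, log2(TPM + 1) (pseudocount 1) was fitted with limma 3.58.1 in R 4.3.3, with group as the only term over all 17 libraries and eBayes with trend and robust moderation. Genes at 1 TPM or more in at least 5 libraries were tested (16153), two-sided, with Benjamini-Hochberg adjustment over all of them and a call at 0.05. A fold change on this scale understates the change of low genes. The fit was tested on simulated data. Relations used two-sided permutation tests with 100000 resamples (numpy 2.4.6). Named genes were, per comparison, the 2 or 3 tested members of each kinesin role and the 1 member of each partner list with the smallest p, plus any called. The ratio of Kif1a to Kif5a, the order of levels, deviations by library and promoter elements were chosen after values were seen. The members and lists were chosen with earlier results of these data known. Alternatives covered the pseudocount, filter, scaling, weights, moderation, groups in the fit, a replicate block and each library left out. A deposited table with the columns of all libraries was not used, since each library has its own file.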

Additional observations from a re-analysis of the deposited data

Results flagged for a closer look

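Kif3a, a kinesin-2 subunit, was at 41.3 TPM in control replicate 4, where the next lowest control was at 61.6 TPM, so the gap took up most of the range of the 6 controls. It was the 1 sample that stood apart by this measure among 66 groups of 5 or 6 libraries (22 tested kinesins in 3 groups), where chance gives about 1 in 20. A single flag is fewer than that rate gives. The groups are not independent, since control replicate 4 was lowest for 16 of the 22 tested kinesins.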

How the results depend on the processing

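No kinesin passed limma's test in any of the 3 comparisons under any alternative tried. For VB-127 against controls, where 1 gene of all tested was called, 0 genes were called with a pseudocount of 0.1, with no filter on low values, with a filter at 5 TPM and with the replicate number as a block, 3 with library weights, 2 without the 2 control libraries highest in Dbh (replicates 1 and 6) and 2 with only both groups in the fit. For vindeburnol against controls, where 0 were called, 1 gene was called with TPM rescaled without Bc1 and 1 with library weights. Leaving out 1 library gave 0 to 1 genes for VB-127. The labels do not say whether replicate numbers pair the samples. Same-numbered libraries' deviations from group means correlated between -0.195 and 0.111. This cannot decide the question, since differently numbered libraries were not set beside them. The replicate block called 0 kinesins.

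Signs turned as follows, and the cause was not tested. Kif1c for VB-127 was -0.059 with median-ratio scaling, -0.039 with quantile normalization and -0.0043 without Bc1, and for vindeburnol -4.0e-05 with quantile normalization. Kif26a between the compounds was -0.022 with library weights. Without control replicates 1 and 6, Kif5b for vindeburnol was 0.015 and Kif19a for VB-127 -0.018. The r of Kif5a with Nefh was -0.465 with median-ratio scaling and -0.395 without Bc1. Over fits that left out 1 library each, Kif22 for VB-127 ranged from -0.32 to 0.11, Kif16b from -0.0018 to 0.32 for vindeburnol and from -0.031 to 0.30 between the compounds, and Kif26a between the compounds from -0.026 to 0.064. Over the same fits r ranged from -0.0831 to 0.178 for Kif11 with Top2a, from 0.451 to 0.853 for Kif1a with Snap25, from -0.175 to 0.197 for Kif22 with Mki67, from -0.0519 to 0.113 for Kif5a with Nefh and from -0.116 to 0.378 for Kif9 with Foxj1. Differences within the spread of libraries were not detectable with groups of this size. TPM gives no depth, so low mitotic levels cannot be given a counting error.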
